A study of Mus musculus with 4 samples.

Results

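The genes described here are 59 mouse genes whose products build and run the mitotic apparatus: the spindle, the kinetochores, the condensed chromosomes and the machinery of cytokinesis. They were taken by name from a list drawn up with earlier results of these data known. All 59 were found among the 15466 genes of the deposited table. RNA came from CD8 T cells of the spleens of C57BL/6 mice that received either PBS (the group labelled wild-type, WT) or IL-15C (the cytokine IL-15 bound to its receptor chain IL-15Ra), given 4 times per week. After magnetic enrichment for CD8, the cells were sorted into naive cells (CD44- CD49d-) and virtual memory (VM) cells (CD44hi CD49d-), the latter being memory-type cells that arise without known encounter with antigen. PBS naive, PBS VM, IL-15C naive and IL-15C VM cells were each measured in 1 poly(A) RNA-seq library. Each title names 3 mice, without saying if their RNA was pooled. The deposited columns headed as controls were taken to be the PBS mice. Neither the age of the mice nor the dose is given in the sources used here. The cells came from whole mice that kept all their other cells, so that direct and indirect actions of IL-15C were measured together.

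Because each group had 1 library, no difference could be set against a spread between mice, and no p-value was computed. The 95% intervals given with log2 ratios cover counting error only. Genes are called higher or lower here where the ratio was 2-fold or more with its entire interval past 2-fold. The libraries held 43862816 to 48950547 reads assigned to genes. The T cell genes Cd8a, Cd8b1, Cd3d, Cd3e, Cd3g and Trac were abundant in each library, Cd8a standing at 892 TPM (the authors' level per transcript length, scaled to a common total) in PBS naive, 718 TPM in PBS VM, 869.5 TPM in IL-15C naive and 581 TPM in IL-15C VM cells, and none of the 6 was called in any of the 4 comparisons. Cd44, the sorted marker, followed the sort with 3.88 and 6.56 TPM in the naive libraries and 100.5 and 94.3 TPM in the VM libraries. Itga4, which encodes CD49d and is a negative gate of both sorts, was nonetheless listed at 124, 68.5, 49.9 and 8.92 TPM in PBS naive, PBS VM, IL-15C naive and IL-15C VM cells. Exons of 14 members overlap a gene on the opposite strand in GENCODE M21 (Ccna2, Cdc20, Cdc25c, Cdca8, Kif20a, Kif22, Kif4, Mxd3, Ncapg, Nusap1, Plk1, Prc1, Troap and Ube2c), and Ccnb1, Ccnb2, Kif22 and Kif4 have a pseudogene named after them, so that reads of these genes may be shared with another gene.

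A cell enters mitosis when cyclin B and its kinase CDK1 become active, helped by Polo-like and Aurora kinases. Chromosomes are compacted by condensin, held by kinetochores to spindle microtubules that kinesin motors arrange, and released when the anaphase-promoting complex (APC/C) marks securin and cyclin B for destruction. The cell is then divided by centralspindlin, the RhoA activator ECT2 and anillin. Transcripts of most of these genes are made in G2 and mitosis and are scarce in resting cells, and naive CD8 T cells are mostly resting, whereas IL-15 drives memory-type CD8 T cells to divide.

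Together the 59 genes took 0.0804% of the reads in PBS naive, 0.153% in PBS VM, 0.482% in IL-15C naive and 1.21% in IL-15C VM cells (exact binomial 95% intervals 0.0796% to 0.0812%, 0.151% to 0.154%, 0.480% to 0.484% and 1.21% to 1.22%). The median member stood at 0.821 TPM in PBS naive, 6.59 TPM in PBS VM, 34.4 TPM in IL-15C naive and 78.6 TPM in IL-15C VM cells, while the median over all genes was 11.7, 11.5, 10.2 and 9.79 TPM. In terms of rank among all genes, the median member moved from the 20.2 percentile in PBS naive to the 40.8, 76.7 and 88.2 percentile in the other libraries. In a bulk library, a larger share of dividing cells and more RNA of these genes per dividing cell cannot be told apart.

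In 56 of the 59 members the libraries had the same order of CPM (reads scaled to library size), with IL-15C VM highest, then IL-15C naive, PBS VM and PBS naive. The exceptions were Pttg1, which encodes the separase inhibitor securin, Smc4, a core condensin subunit, and Kif23, a kinesin of centralspindlin. Kif23 differed from the common order only in its PBS libraries, at 14.3 TPM in naive and 13.6 TPM in VM cells. All 59 members had more CPM in IL-15C naive than in PBS VM cells, each with its counting interval above 0, and the median log2 ratio of that step was 2.38. This asks less than the 2-fold rule, which Pttg1 (0.28), Smc4 (0.42) and Racgap1 (0.64) did not reach. Neither this step nor the common order was counted over all genes. Between the extreme libraries the CPM ratio ran from 0.813 for Pttg1 to 459 for Pimreg, with a median of 125-fold.

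**Figure D1:**
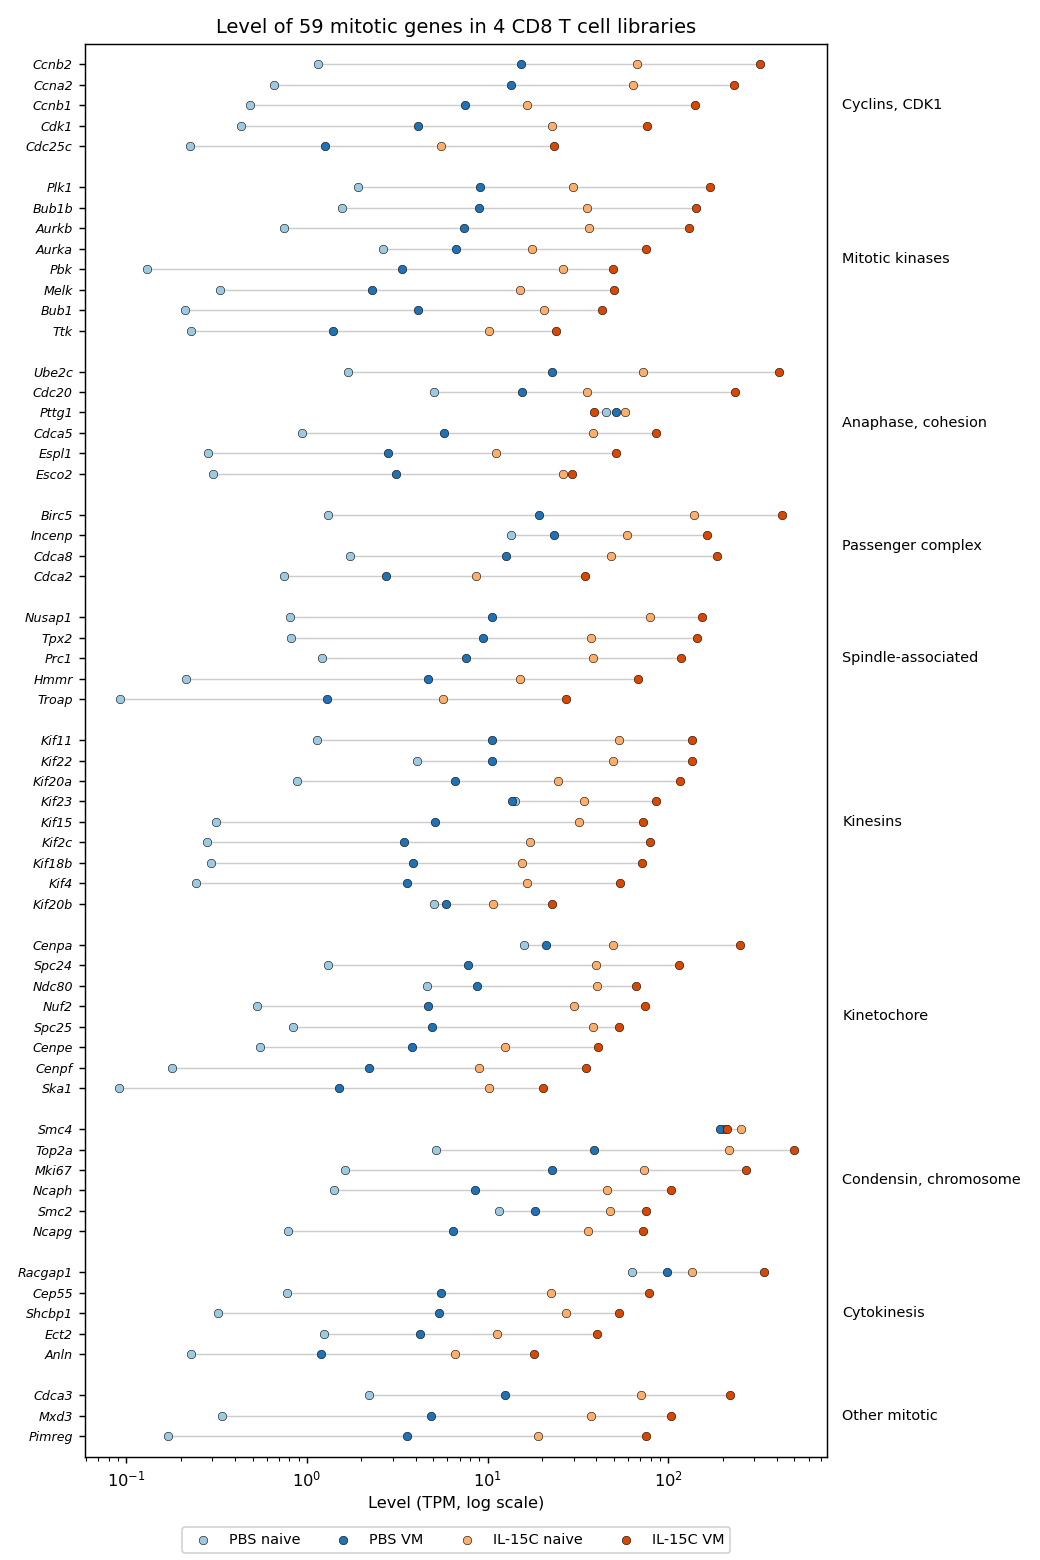
Level of each of the 59 genes in TPM (log axis), 1 point per library, with genes grouped by role and ordered by mean level. In 56 genes the points run from PBS naive through PBS VM and IL-15C naive to IL-15C VM, while the points of Pttg1 and Smc4 lie close together.

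Sequence upstream of these genes is shown next because they moved together and the choice of members did not use it. Many late cell-cycle genes are known to carry a CHR element (TTTGAA or TTCGAA), bound by MuvB complexes with B-MYB, FOXM1 or the repressive DREAM subunits, and CCAAT boxes bound by NF-Y. A RefSeq promoter window of 300 bases (250 before to 50 after the annotated start, GRCm38.p6) was found for 45 of the 59 members. The windows below run from 120 bases before the start to 30 bases into the transcript, 5′ to 3′ along the gene, and belong to the 6 members named in full that have the highest mean TPM among those with the CHR letters inside this stretch. Capitals mark the CHR letters (TTTGAA or TTCGAA) and the letters CCAAT, on either strand.
Top2a promoter, chr11:99024160-99024309, minus strand: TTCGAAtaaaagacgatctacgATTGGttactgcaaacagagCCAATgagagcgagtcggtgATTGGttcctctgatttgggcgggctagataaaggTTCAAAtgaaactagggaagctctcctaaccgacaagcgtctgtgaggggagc
Racgap1 promoter, chr15:99651627-99651776, minus strand: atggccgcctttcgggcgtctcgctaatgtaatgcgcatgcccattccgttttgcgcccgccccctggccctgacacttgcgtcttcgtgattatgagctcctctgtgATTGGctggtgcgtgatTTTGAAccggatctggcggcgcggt
Ube2c promoter, chr2:164769809-164769958, plus strand: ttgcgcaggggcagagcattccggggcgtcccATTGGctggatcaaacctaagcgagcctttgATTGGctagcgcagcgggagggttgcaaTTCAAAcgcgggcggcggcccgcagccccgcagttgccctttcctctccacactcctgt
Ccnb2 promoter, chr9:70421525-70421674, minus strand: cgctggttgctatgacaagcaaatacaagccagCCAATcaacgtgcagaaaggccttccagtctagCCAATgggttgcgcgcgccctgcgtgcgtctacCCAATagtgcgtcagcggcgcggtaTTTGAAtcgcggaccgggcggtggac
Cenpa promoter, chr5:30666766-30666915, plus strand: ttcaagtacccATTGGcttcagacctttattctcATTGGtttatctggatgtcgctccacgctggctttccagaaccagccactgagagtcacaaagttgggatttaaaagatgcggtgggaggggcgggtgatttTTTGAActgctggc
Cdc20 promoter, chr4:118437314-118437463, minus strand: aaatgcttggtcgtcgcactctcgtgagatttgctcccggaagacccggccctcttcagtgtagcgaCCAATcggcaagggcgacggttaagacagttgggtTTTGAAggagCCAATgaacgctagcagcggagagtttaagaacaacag

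TTTGAA or TTCGAA, read on both strands, occurred in the window of 35 of the 45 members (77.8%) and of 1799 of 10397 genes of the count table with a window (17.3%). In 6 members the start of the window lay more than 100 bases inside the gene, from 169 bases in Mxd3 to 3852 bases in Kif2c, with Aurka, Cdca3, Ect2 and Pttg1 (1482 bases) between them. Of the other 39 members 31 held the letters (79.5%), and the count table's genes were not filtered in this way. Within 50 bases of the start the letters were found in 33 of the 45 members, a stretch not counted for the other genes. In the 150 bases nearest the start they occurred in 34 of the 45 members (75.6%) and in 7.16% of the count table's genes. In the windows printed above the match began 23 bases before the start in Top2a (with another at 120 bases before), 29 bases before it in Ube2c and 18 bases before it in Cdc20, and 4, 5 and 16 bases after it in Ccnb2, Racgap1 and Cenpa. CCAAT occurred in 31 of 45 members (68.9%) against 43.4% of the count table's genes, and both motifs in 62.2% against 7.49%. The E2F-type letters TTCCCGCC occurred in 1 of 45 members (2.22%) against 4.69%. A match is a description of letters and does not show binding.

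**Figure D2:**
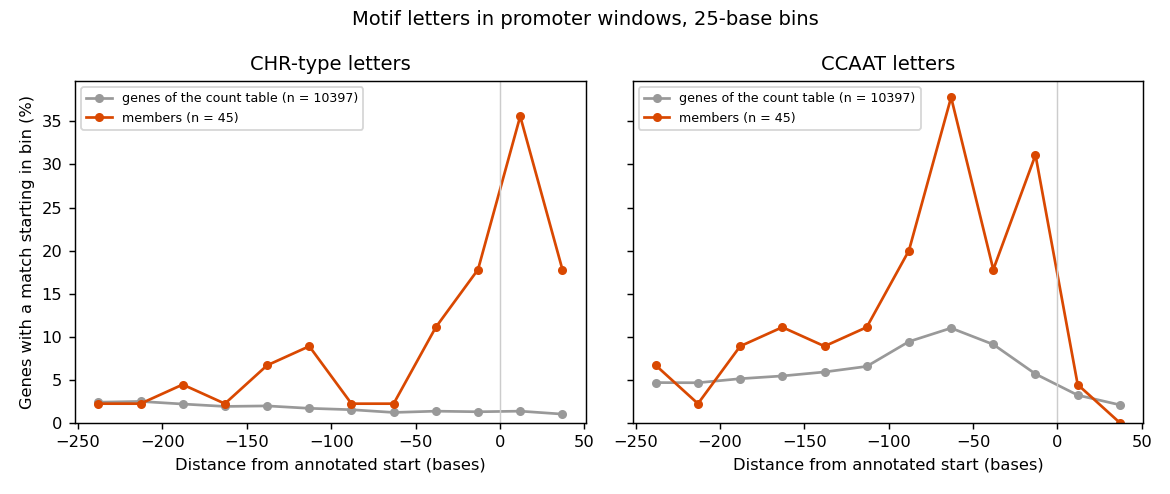
Percent of genes with a match starting in each 25-base bin of the promoter window, by distance from the annotated start, for 45 members and 10397 genes of the count table. CHR-type letters of members peak at 35.6% in the bin of bases 0 to 24, where the count table has 1.35%, and CCAAT peaks at 37.8% in the bin from 75 to 51 bases before the start, where 1144 of 10397 genes of the count table have a match.

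The members without the CHR letters in their window were Birc5, Mxd3, Melk, Pttg1, Nuf2, Troap, Nusap1, Ncaph, Cenpe and Ccnb1, where the windows of Pttg1 and Mxd3 have their start over 100 bases inside the gene. The median log2 ratio of IL-15C to PBS naive cells was 5.58 over these 10 genes and 5.44 over the 35 with the letters, and in VM cells 4.26 and 4.04. The genes with the letters included members with small ratios: Racgap1 and Cenpa stood at 1.35 and 1.87 in naive cells.

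IL-15C naive cells were compared with PBS naive cells to see how mitotic genes differed in the CD44- population. Cells were sorted after treatment, so the ratio compares sort gates and need not follow the same cells. Of the 59 members, 57 were called higher and 0 lower, where 4.95% of the 12174 genes compared were called higher and 1.99% lower. Only Pttg1 and Smc4 were not called. The median log2 ratio of the members was 5.51, or 45.4-fold, against 0.02 over all genes compared. The largest ratios were those of Pbk, a mitotic kinase (7.31, 95% counting interval 6.63 to 9.21), the spindle kinesin Kif15 (6.81, 6.44 to 7.39) and cyclin A2, Ccna2 (6.78, 6.46 to 7.24). The smallest were those of Pttg1 (0.43, 0.32 to 0.55), Smc4 (0.48, 0.45 to 0.50) and the kinesin Kif20b (1.32, 1.20 to 1.46).

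PBS naive cells had few reads for many of these genes. Pbk and Troap had 6 reads each, 8 members had under 20 reads, and 27 lay below 1 CPM, so that the upper bounds of their ratios are wide. The 12 members at or above 4 TPM in PBS naive cells were Smc4, Racgap1, Pttg1, Cenpa, Kif23, Incenp, Smc2, Top2a, Kif20b, Cdc20, Ndc80 and Kif22. Their median log2 ratio was 2.07, against 5.70 for the 47 members below that level. This split uses the same library as the ratio and is a description only.

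In VM cells the same comparison again called 57 of 59 members higher and 0 lower (background 8.60% higher and 8.83% lower of 12370 genes), and again Pttg1 and Smc4 were the exceptions. The median log2 ratio was 4.04, or 16.4-fold, against −0.04 over all genes. Members lay closer together here: the quartiles of the ratios ran from 3.62 to 4.28 in VM cells and from 4.37 to 5.97 in naive cells. Kif2c, a microtubule-depolymerising kinesin (4.65, 4.47 to 4.86), the kinase gene Melk (4.55, 4.33 to 4.80) and cyclin B2, Ccnb2 (4.55, 4.43 to 4.68), had the largest ratios. Racgap1, the GTPase-activating subunit of centralspindlin, had the smallest among called members (1.94, 1.899 to 1.98).

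The difference between both responses was computed per gene from the 4 counts. The VM response was called smaller than the naive one in 26 members and larger in 2, Cenpa and Kif23, against a background of 4.34% and 0.951% of 12617 genes. Its median was −1.28 log2 units against −0.07 over all genes. Pbk (−3.31, −4.92 to −2.55), the checkpoint kinase gene Bub1 (−3.15, −3.86 to −2.67) and the cohesin acetyltransferase gene Esco2 (−3.13, −3.87 to −2.62) had the lowest differences. Cenpa, the centromeric histone (1.88, 1.71 to 2.05), Kif23 (1.33, 1.19 to 1.46) and the APC/C activator Cdc20 (1.017, 0.78 to 1.24) had the highest. The size depended on the scale used. On log2(TPM + 1), with the authors' TPM, the median was −0.13 against 0.035 over all genes. There 13 members were 2-fold lower and 5 higher, and the share of all genes was not computed. A pseudocount of 1 TPM lowers ratios of genes under 1 TPM by construction. With a prior count of 0.5 the median was −1.355, and with DESeq2 size factors −1.204.

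**Figure D3:**
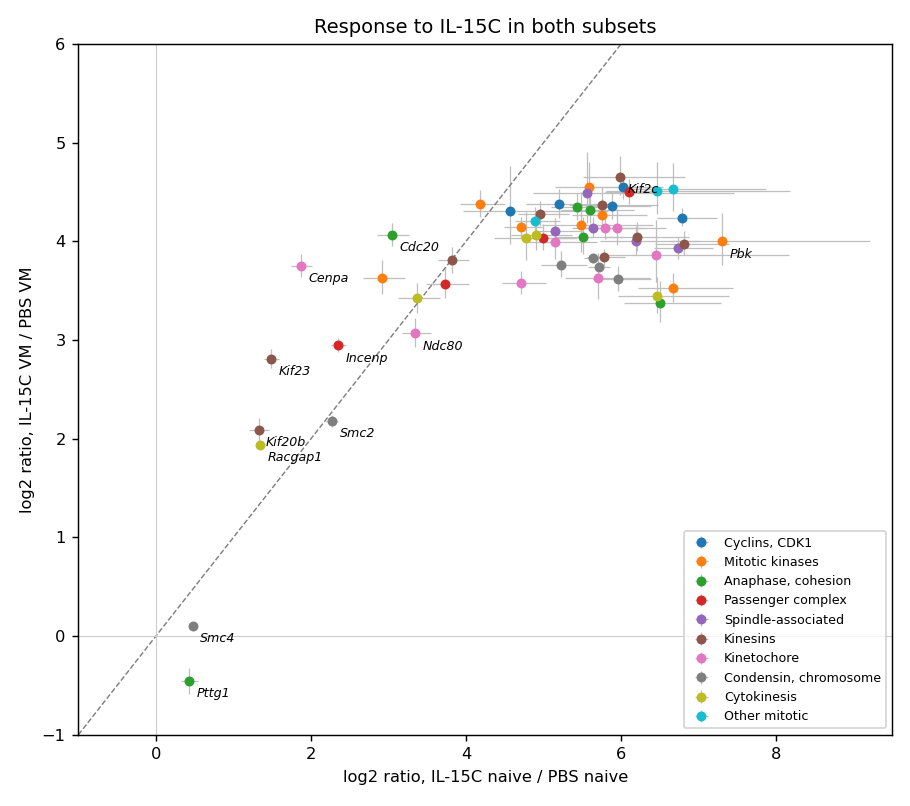
Log2 ratio of IL-15C to PBS in VM cells (vertical) against naive cells (horizontal), 1 point per gene coloured by role, with 95% counting intervals as bars and equality dashed. Most points lie below the dashed line at a VM ratio near 4, Cenpa, Kif23 and Cdc20 lie farthest above it, and Smc4 and Pttg1 lie near the origin.

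Virtual memory and naive cells of PBS mice were compared to see how the subsets differed without IL-15C. VM cells were called higher in 50 of 59 members and lower in 0 (background 4.81% and 1.11% of 12259 genes), with a median log2 ratio of 2.89, or 7.41-fold, against 0.01 over all genes. Ccna2 (4.36, 4.03 to 4.82), the spindle protein gene Hmmr (4.32, 3.83 to 5.14) and Bub1 (4.19, 3.72 to 4.97) led. The 9 members not called were Kif23 (−0.02, −0.15 to 0.10), Smc4 (0.06), Pttg1 (0.16), Kif20b (0.28), Cenpa (0.42), Racgap1 (0.71), Smc2 (0.73), Incenp (0.86) and Ndc80 (0.95). Each of these 9 was among the 12 members at or above 4 TPM in PBS naive cells. The TPM of PBS VM cells, 1.19 to 194 over the members, lay below that of IL-15C naive cells in each member.

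In IL-15C mice VM cells were called higher than naive cells in 46 of 59 members and lower in 0 (background 6.52% and 5.91% of 12206 genes). The median log2 ratio was 1.60, or 3.03-fold, against −0.01 over all genes. The largest ratios were those of cyclin B1, Ccnb1 (3.07, 2.98 to 3.16), Cdc20 (2.68, 2.61 to 2.76) and the Polo-like kinase gene Plk1 (2.49, 2.42 to 2.56). Cyclin B1 and PLK1 drive entry into mitosis, and CDC20 switches on the APC/C once chromosomes are attached. At the lower end stood Pttg1 (−0.73, −0.86 to −0.60), Smc4 (−0.31, −0.34 to −0.29) and Esco2 (0.14, 0.05 to 0.22), followed by the kinetochore gene Spc25 (0.45, 0.36 to 0.55). The other members not called were Smc2, Ndc80, Pbk, Shcbp1, Nusap1, Ska1, Ncapg, Bub1 and Kif20b, at 0.63 to 1.05. With a 4-fold rule 12 members were called, and the share of all genes under that rule was not computed. The comparisons within a subset and within a treatment share libraries, so their values stand side by side and are not independent of each other.

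**Figure D4:**
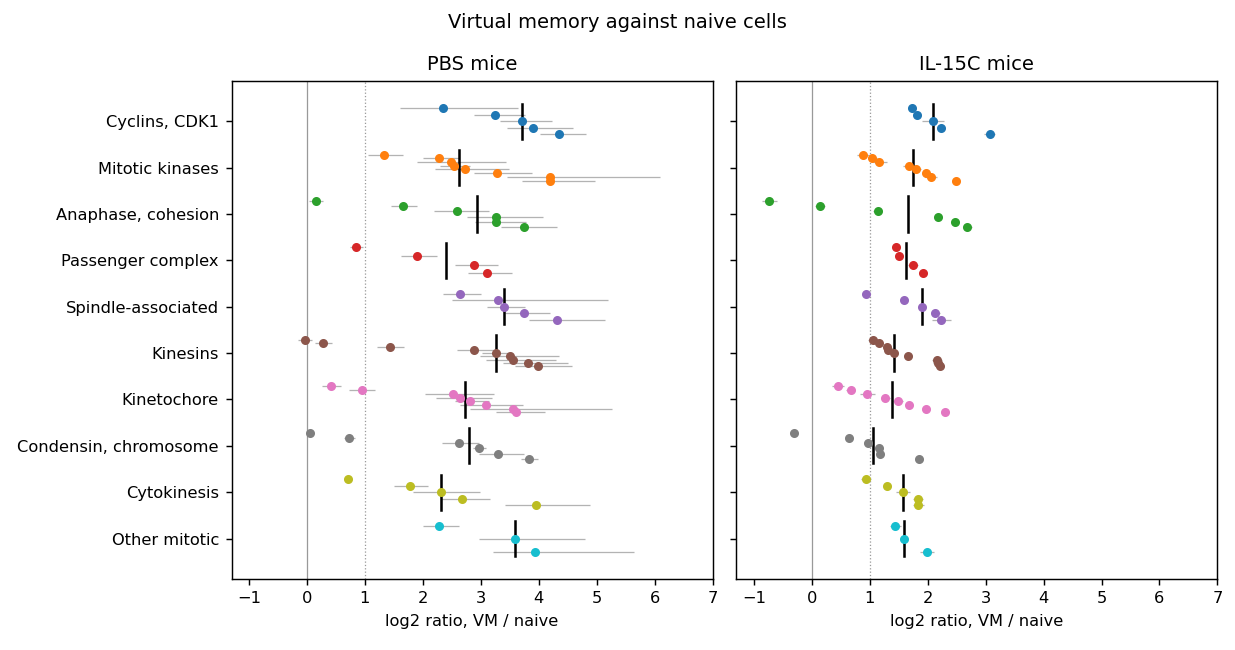
Log2 ratio of VM to naive cells in PBS mice (left) and IL-15C mice (right), 1 point per gene grouped by role, with 95% counting intervals as bars, class medians as black lines and 2-fold dotted. In PBS mice 9 genes lie near or below the dotted line, and in IL-15C mice Ccnb1 is the highest at 3.07 and Pttg1 the lowest at −0.73.

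In the authors' deposited table, counting members with an adjusted p below 0.05 and at least 2-fold, 57 members were higher with IL-15C in naive and 57 in VM cells, 50 were higher in VM than in naive cells of PBS mice and 48 in those of IL-15C mice. The authors' deposited table called 10.3%, 22.7%, 7.47% and 16.8% of all genes in either direction in these comparisons. The labels do not name the test behind it, and in these comparisons each side is 1 library. For the comparison headed IL-15C over control, the authors' deposited table listed 57 members as higher, against 3.25% of all genes called, with Pttg1 and Smc4 not called. That header names no subset, so each side may join a naive and a VM library, which are not replicates.

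The cyclins and their kinase were low in PBS naive cells and high in IL-15C VM cells. Ccnb2 stood at 1.16 TPM in PBS naive, 15.3 TPM in PBS VM, 67.4 TPM in IL-15C naive and 324 TPM in IL-15C VM cells. Ccna2, the cyclin of S phase and G2, stood at 0.661, 13.5, 64.2 and 231 TPM in the same order. In both, each step of the order was visible. Ccnb1 stood at 0.485 TPM in PBS naive, 7.52 TPM in PBS VM, 16.5 TPM in IL-15C naive and 141 TPM in IL-15C VM cells. The log2 ratio of VM to naive cells in IL-15C mice was 3.07 for Ccnb1, 2.23 for Ccnb2 and 1.82 for Ccna2. The kinase gene Cdk1 ran from 0.432 to 76.4 TPM, and Cdc25c, a phosphatase that activates CDK1, from 0.225 to 23.3 TPM. All 5 genes were called higher in each of the 4 comparisons.

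Among the 8 mitotic kinases, Plk1 had the highest mean level, with 1.91 TPM in PBS naive, 9.12 TPM in PBS VM, 29.9 TPM in IL-15C naive and 171 TPM in IL-15C VM cells. Bub1b, whose product BUBR1 holds back the APC/C until chromosomes are attached, stood at 1.57, 8.92, 35.5 and 142 TPM. Both followed the common order, and in PBS naive cells they rested on 108 and 148 reads. Aurka, which acts at spindle poles, was the kinase gene with the smallest naive response (2.92, 2.67 to 3.21) and the highest PBS naive level among them (2.63 TPM). Aurkb, the kinase of the chromosomal passenger complex, had a naive response of 5.75 (5.37 to 6.34). In IL-15C mice Pbk (0.88) and Bub1 (1.04) were the kinase genes in which the VM excess over naive cells was not called.

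Genes of anaphase and cohesion differed widely among themselves. Ube2c, the ubiquitin-conjugating enzyme of the APC/C, stood at 1.68 TPM in PBS naive, 22.9 TPM in PBS VM, 72.9 TPM in IL-15C naive and 411 TPM in IL-15C VM cells, and Cdc20 at 5.04, 15.5, 35.7 and 234 TPM. Pttg1 lay at 45.2 TPM in PBS naive, 51.3 TPM in PBS VM, 57.9 TPM in IL-15C naive and 38.7 TPM in IL-15C VM cells. In TPM, Pttg1 was the member with the third highest level in both PBS libraries. In CPM, Smc2 (31.9) and Kif23 (23.8) also lay above Pttg1 (22.1) in PBS naive cells. Pttg1 had the fewest CPM of the members (17.97) in IL-15C VM cells. In TPM the lowest member of that library was Anln (17.98). Separase itself, encoded by Espl1, followed the common order with 0.282, 2.80, 11.2 and 51.7 TPM. Esco2, which acetylates cohesin in S phase, stood at 26.2 TPM in IL-15C naive and 29.3 TPM in IL-15C VM cells, and Cdca5, sororin, at 38.2 and 85.7 TPM.

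The chromosomal passenger complex joins Aurora B with survivin (Birc5), borealin (Cdca8) and the scaffold INCENP. Birc5 stood at 1.31 TPM in PBS naive, 19.4 TPM in PBS VM, 140 TPM in IL-15C naive and 425 TPM in IL-15C VM cells, while Incenp stood at 13.5, 23.5, 58.8 and 164 TPM. Incenp was the most abundant of these subunits in PBS naive cells, and Birc5 in both IL-15C libraries. In PBS naive cells Cdca8 was at 1.74 TPM and Aurkb at 0.748 TPM. Cdca2, which brings protein phosphatase 1 to anaphase chromatin, ran from 0.745 to 34.5 TPM.

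Spindle-associated genes included Nusap1, a microtubule bundler, at 0.801 TPM in PBS naive, 10.7 TPM in PBS VM, 79.5 TPM in IL-15C naive and 154 TPM in IL-15C VM cells, and Tpx2, the activator of Aurora A at the spindle, at 0.821, 9.43, 37.2 and 144 TPM. In IL-15C mice the VM to naive ratio was 0.94 (0.89 to 0.98) for Nusap1, which was not called, and 1.899 (1.85 to 1.95) for Tpx2. Hmmr, Prc1, which bundles the central spindle, and Troap were called higher in all 4 comparisons.

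The 9 kinesins differed most in their level in PBS naive cells. Kif11, which pushes spindle poles apart, stood at 1.13 TPM in PBS naive, 10.6 TPM in PBS VM, 53.6 TPM in IL-15C naive and 136 TPM in IL-15C VM cells. Kif22, a chromosome-arm motor, stood at 4.06, 10.6, 49.4 and 136 TPM. Kif15, Kif18b, Kif20a, Kif2c and Kif4 all lay below 1 TPM in PBS naive cells, whereas Kif20b was at 5.08 TPM and Kif23 at 14.3 TPM. All 9 were called higher with IL-15C in both subsets, with ratios from 1.32 (Kif20b) to 6.81 (Kif15) in naive and from 2.09 (Kif20b) to 4.65 (Kif2c) in VM cells. Another 18 kinesin and kinesin-associated genes are known mainly for transport and other tasks. In naive cells 0 of the 17 with enough reads were called. Over all genes compared 4.95% were called higher there and 1.99% lower, and so short a list cannot set 0 calls apart from these shares. In VM cells 0 were called higher and 4 lower, Kif13a (−3.22), Kifc2 (−2.09), Kif1b (−2.03) and Kifc3 (−1.56). The shares over all genes were 8.60% and 8.83%. The median ratios of the transport list were −0.44 in naive and −0.51 in VM cells.

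At the kinetochore, Cenpa stood at 16.0 TPM in PBS naive, 21.1 TPM in PBS VM, 49.3 TPM in IL-15C naive and 249 TPM in IL-15C VM cells. It was highest in IL-15C VM cells, with a log2 ratio of VM to naive cells of 2.30 (2.23 to 2.38) in IL-15C mice and 0.42 (0.26 to 0.58) in PBS mice. The 4 genes of the NDC80 complex, which grips microtubule ends, were unequal in PBS naive cells, at 4.65 TPM for Ndc80, 0.527 TPM for Nuf2, 1.30 TPM for Spc24 and 0.840 TPM for Spc25. In IL-15C naive cells they lay between 30.2 TPM (Nuf2) and 40.6 TPM (Ndc80), and in IL-15C VM cells between 53.2 TPM (Spc25) and 114 TPM (Spc24). Cenpe, a kinetochore motor, and Cenpf ran from 0.550 to 40.9 TPM and from 0.178 to 35.1 TPM. Ska1, which tracks microtubule ends with its complex, had 7 reads in PBS naive cells and reached 20.4 TPM in IL-15C VM cells.

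**Figure D5:**
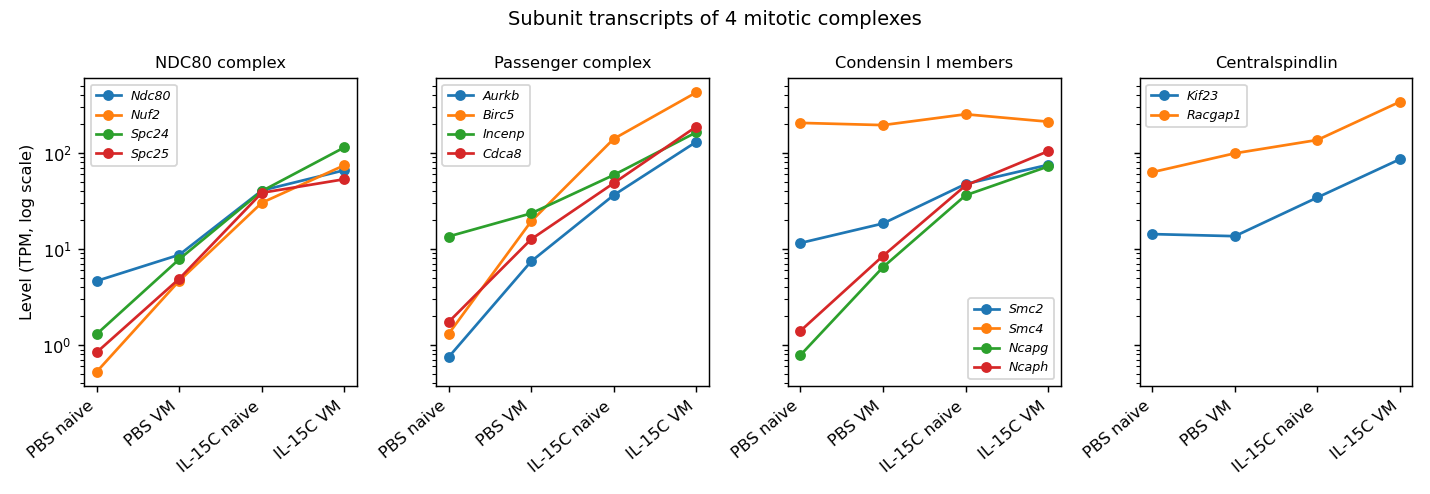
Level in TPM (log axis) of the subunit genes of the NDC80 complex, the chromosomal passenger complex, condensin and centralspindlin in the 4 libraries, 1 line per gene. Smc4 stays between 194 and 252 TPM while Ncapg and Ncaph start near 1 TPM, and Racgap1 lies above Kif23 in each library.

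The condensin genes differed in level in PBS naive cells. Smc4 stood at 205 TPM in PBS naive, 194 TPM in PBS VM, 252 TPM in IL-15C naive and 211 TPM in IL-15C VM cells, and it supplied 47.8% of the members' summed TPM in PBS naive but 2.92% in IL-15C VM cells. Smc2, its obligate partner, stood at 11.5, 18.4, 47.4 and 75.1 TPM. Ncapg and Ncaph, subunits of condensin I, ran from 0.786 to 72.2 TPM and from 1.41 to 104 TPM. The IL-15C ratio of Smc4 in VM cells was 0.11 with the scaling used here and −0.004 with library totals alone. Of the condensin II genes, Ncapg2 was called higher with IL-15C in naive (4.61) and VM cells (3.30), Ncaph2 in VM cells alone (1.71 against 0.84 in naive cells) and Ncapd3 in neither (0.20 and 0.99). The difference between the responses of Ncaph2 was 0.86 and was not called.

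Other chromosome genes among the members were Top2a, which untangles DNA, and Mki67, whose product coats mitotic chromosomes. Top2a stood at 5.16 TPM in PBS naive, 38.9 TPM in PBS VM, 216 TPM in IL-15C naive and 495.5 TPM in IL-15C VM cells. Mki67 stood at 1.62, 22.8, 73.3 and 268.5 TPM. Both were called higher in all 4 comparisons. Exons of Top2a overlap a small nucleolar RNA gene on the same strand.

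In cytokinesis genes, the centralspindlin pair was already abundant in PBS naive cells. Racgap1 stood at 62.9 TPM in PBS naive, 99.0 TPM in PBS VM, 136 TPM in IL-15C naive and 340 TPM in IL-15C VM cells, and Kif23 at 14.3, 13.6, 34.4 and 86.0 TPM. Cep55, which recruits the abscission machinery, stood at 0.779, 5.49, 22.4 and 78.6 TPM. Ect2, which Racgap1's product activates, ran from 1.25 to 40.6 TPM, Anln, the furrow scaffold anillin, from 0.228 to 17.98 TPM, and Shcbp1, a binding partner of centralspindlin, from 0.322 to 53.3 TPM. Of the remaining members, Cdca3 stood at 2.21, 12.5, 71.1 and 220 TPM, Mxd3, a MAX-binding repressor, at 0.339, 4.87, 37.2 and 103 TPM, and Pimreg at 0.171, 3.58, 19.0 and 75.1 TPM.

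Other genes of mitosis, taken from a list of 64 that are not members, also had more calls in the higher than in the lower direction in the 4 comparisons, with smaller medians. Of the 63 in the table, 51 were called higher with IL-15C in naive cells and 57 in VM cells, and 0 lower in either. The shares called higher over all genes were 4.95% and 8.60%. The median log2 ratios of the 63 genes were 2.75 and 3.21. In PBS mice 28 were called higher in VM than in naive cells (median 0.99) and in IL-15C mice 37 (median 1.21), against 4.81% and 6.52% of all genes. For the difference between responses the median was 0.25 over these genes, against −1.28 over the members. Of these genes 2 were called higher and 3 lower, beside shares of 0.951% and 4.34% over all genes. Over the 12 members at or above 4 TPM in PBS naive cells the median difference between responses was 0.29, and over the other 47 it was −1.46. The PBS naive library is also a term of that difference, so this split is a description only. Examples in naive cells are Ckap2l (5.62), Depdc1a (5.61), Spag5 (5.52) and the centrosome kinase gene Nek2 (5.40). Genes such as Zwint (0.48), Mis12 (0.50) and Cenpq (0.33), which encode kinetochore components and were picked after their values were seen, were not called in either subset.

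Subunits of machines that also act outside mitosis had smaller median ratios with IL-15C than the members. Over all genes compared with IL-15C, 4.95% were called higher in naive and 8.60% in VM cells. Of 15 APC/C subunit and activator genes, 0 were called with IL-15C in naive cells, and 4 were higher in VM cells, namely the activator Fzr1 (1.89), Anapc15 (1.86), Anapc5 (1.21) and Anapc11 (1.17). Of 10 cohesin and cohesin-loading genes, 0 were called in naive cells, and Rad21 was higher in VM cells (1.43), counts near those shares. Among 14 tubulin genes, 4 were called higher in naive and 7 in VM cells, with Tuba1b at 435 TPM in PBS naive, 454 TPM in PBS VM, 964 TPM in IL-15C naive and 2467 TPM in IL-15C VM cells. The 24 DNA replication genes had median ratios of 2.38 in naive and 2.57 in VM cells, with 23 and 24 called higher. In IL-15C mice VM cells were higher in 8 of the 24 (median 0.90), against 6.52% of all genes compared.

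Transcripts of other blood cells were measured beside these values. The summed CPM of 5 dendritic cell genes was 5.01 in PBS naive, 201 in PBS VM, 8.34 in IL-15C naive and 87.9 in IL-15C VM cells. Over 4 B cell genes it ran from 483 to 626 CPM, over 4 plasma cell genes from 27.5 to 75.8 CPM, over 5 erythroid genes from 70.4 to 87.8 CPM, over 4 myeloid genes from 3.39 to 18.1 CPM, over 3 CD4 and regulatory T cell genes from 2.56 to 20.7 CPM and over 4 NK and gamma-delta genes from 6.55 to 36.9 CPM. The defining genes Ms4a1, Pax5, Sdc1, Klf1, S100a8, Adgre1, Cd4 and Ncr1 have no row in the table and were not analysed here. Except for the plasma cell, erythroid, myeloid and NK lists, whose sums were highest in IL-15C VM cells as were most mitotic genes, these sums were highest in PBS VM cells. The plasma cell and erythroid sums were carried by Xbp1 (20.5 to 53.5 CPM) and Tfrc (68.8 to 86.0 CPM), which T cells also express. The plasma cell gene Jchain was at 0.0786, 6.07, 0.11 and 0.887 CPM in PBS naive, PBS VM, IL-15C naive and IL-15C VM cells, and the haemoglobin gene Hba-a1 at 0.334, 1.74, 0.352 and 0.537 CPM. Both were highest in PBS VM cells and called lower with IL-15C in VM cells, as were Hbb-bs and Hbb-bt and the myeloid genes Lyz2 and Csf1r. The other myeloid genes, Cd68 (1.70) and Itgam, were called higher with IL-15C in VM cells. Of the dendritic cell genes Itgax was called higher there (1.37), and H2-Aa, H2-Ab1, Cd74 and Flt3 lower. The part of other cells in the results was not tested.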

How the data were processed

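Stranded poly(A) RNA-seq of 4 sorted CD8 T cell populations was analysed, with 1 library per group. Tools listed in the submitters' processing notes are HISAT2 2.1.0 and StringTie 2.1.3b, with Trimmomatic 0.38 and FastQC 0.11.7, and also SAMtools 1.9, R 4.2.2 and edgeR, with build mm10. The role of each, the annotation and the use of strand in counting are not given in the sources used here. The deposited table gives unnormalized whole read counts for each gene. It also holds TPM, and FPKM that were not used further, per the file headers. The authors also deposited log2 values (recomputed from the counts as log2 of 1 + CPM after TMM scaling, largest difference 1.4e-06), signed fold changes and adjusted p-values. Another 10 per-sample columns stayed unused. No count below 1 occurs in the table, and genes without a read in a library were not analysed here.

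Counts were scaled by TMM (edgeR 4.0.16, R 4.3.3). Log2 ratios used a prior count of 2, and intervals were exact conditional binomial (Clopper-Pearson), or Wald intervals from the 4 counts for the difference of responses, without the prior count. Genes needed 20 reads in the libraries compared and 1 CPM in the higher one, which all 59 members met. Without molecular identifiers, reads may be copies of 1 molecule, and intervals cover counting error only. The members and lists were chosen with earlier results of these data known. Named in full were the 2 members of highest mean TPM per class and the 3 highest and lowest ratios per comparison, and of other lists the largest called genes, with a few uncalled ones chosen after their values were seen. Coordinates and promoters are RefSeq's on GRCm38.p6, and exon overlaps come from GENCODE M21.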

Additional observations from a re-analysis of the deposited data

Results flagged for a closer look

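Pttg1 moved in opposite directions with IL-15C in the subsets. Its log2 ratio was 0.43 in naive cells (95% counting interval 0.32 to 0.55) and −0.46 in VM cells (−0.59 to −0.32), a difference of −0.89. Neither ratio reached 2-fold. With 1 library per group the difference was not tested between mice. Over the TMM, DESeq2 and library-total scalings it ran from −0.94 to −0.81.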

How the results depend on the processing

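No direction of a member count or median was reversed by the alternatives tried, which were DESeq2 size factors, library totals, a prior count of 0.5, no filter, a filter at 5 CPM, calls without the interval, a 4-fold rule, the authors' TPM, and, chosen after seeing the data, leaving out Smc4 and Pttg1 or the 14 members whose exons overlap an opposite-strand gene, or the 6 members whose promoter window has its start over 100 bases inside the gene. With the 4-fold rule 12 members in place of 46 were called between VM and naive cells of IL-15C mice, and 8 in place of 28 for the difference of responses. On log2(TPM + 1) 18 members differed 2-fold in response, and the median ratios were 1.87 (VM against naive, PBS), 3.83 (IL-15C response, naive), 3.59 (IL-15C response, VM) and −0.13 (difference of responses). The pseudocount of 1 TPM lowers ratios of genes under 1 TPM by construction. The share of all genes called was not computed for the 4-fold rule or for log2(TPM + 1). The median between VM and naive cells of IL-15C mice was 1.53 with library totals and 1.51 without the overlapping members. As a share of TPM the members made up 0.0429%, 0.0823%, 0.253% and 0.724% of PBS naive, PBS VM, IL-15C naive and IL-15C VM cells. The median over all genes shifted by −0.12 with library totals (IL-15C response, VM), and with TPM by −0.20 (naive response), −0.12 (VM response) and 0.10 (difference). The sign of 1 member's ratio depended on the scaling in the VM response, Smc4, and of 1 in the difference of responses, Kif22 (−0.01, or 0.07 with DESeq2 factors). No paired analysis was possible because each group had 1 library, and for the same reason no replicate could be left out. With 6 to 18 reads for the 8 scarcest members in PBS naive cells, depth limits the upper bounds of their ratios.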
